A study of Homo sapiens with 2 samples.

Results

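The 6 mRNAs described here encode 5 proteins of the secretory and lysosomal system and TMEM50A, a transmembrane protein. They are COG8, BET1L, RTN3, ATP6AP1, CTSZ and TMEM50A, chosen by gene symbol from the 104 genes that the authors listed from their SYNJ2BP RIP-seq, and all 6 were found in the table. RIP-seq (RNA immunoprecipitation and sequencing) pulls down a protein with an antibody and sequences the RNA that comes with it. The experiment was performed on endogenous SYNJ2BP, which sits on the surface of mitochondria and binds other proteins through a PDZ domain, in untreated HEK293T cells, which derive from human embryonic kidney and carry the SV40 large T antigen. The SYNJ2BP IP was set against an IgG negative control, with 1 library each, and according to the labels these differ in the antibody alone.

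The listed genes had been selected by the authors, and no listed gene had an IP over IgG ratio under 84.8, so being higher in the SYNJ2BP IP is a property of the list. No RNA from before the immunoprecipitation was analysed here, so a high value cannot be told apart from an mRNA that was abundant in the cells. The table does not list SYNJ2BP itself or a set of kidney markers against which the cell label could be checked. With 1 library per condition there was no replicate spread and no test could be made. Differences below therefore describe these libraries. Values are FPKM, in which the fragments of a gene are divided by transcript length and by the size of the library. The sequencing depth is unknown for either library.

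Proteins made at the endoplasmic reticulum (ER) travel to the Golgi in vesicles, which are first held by tethering complexes and then fused by SNARE proteins. Material bound for degradation reaches lysosomes, which are kept acidic by a proton pump, the V-ATPase, so that their proteases can work. Of the 6 genes, 5 fall along this route. COG8 is a subunit of the conserved oligomeric Golgi complex, which tethers vesicles at the Golgi. BET1L is a Golgi SNARE, RTN3 is a reticulon that shapes ER tubules, ATP6AP1 is an accessory subunit of the V-ATPase, and CTSZ is cathepsin Z, a lysosomal cysteine protease. TMEM50A is a small transmembrane protein whose role is less well defined. It is grouped here as a membrane protein only, and the study took it up among its mitochondrion-related hits.

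All 6 mRNAs exceeded their IgG level in the SYNJ2BP IP, as did 100% of the listed genes, and they were recovered at moderate levels. Their FPKM ran from 10.8 for BET1L to 39.7 for ATP6AP1, with a median of 15.0. The highest was thus 3.69 times the lowest, whereas the whole list ran from 0.619 to 1842. The median of the other 98 listed genes was 12.0, and 5 of the 6 mRNAs lay above the median of the full list, 12.2. By definition 52 of the 104 listed genes lay above it. Together the 6 made up 2.36% of the summed FPKM of the listed genes in the SYNJ2BP IP, or 5.48% once the 2 dominant genes, SCRIB and MPDZ, were set aside. By number they were 6 of the 104 listed genes, so these shares do not set them apart.

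**Figure D1:**
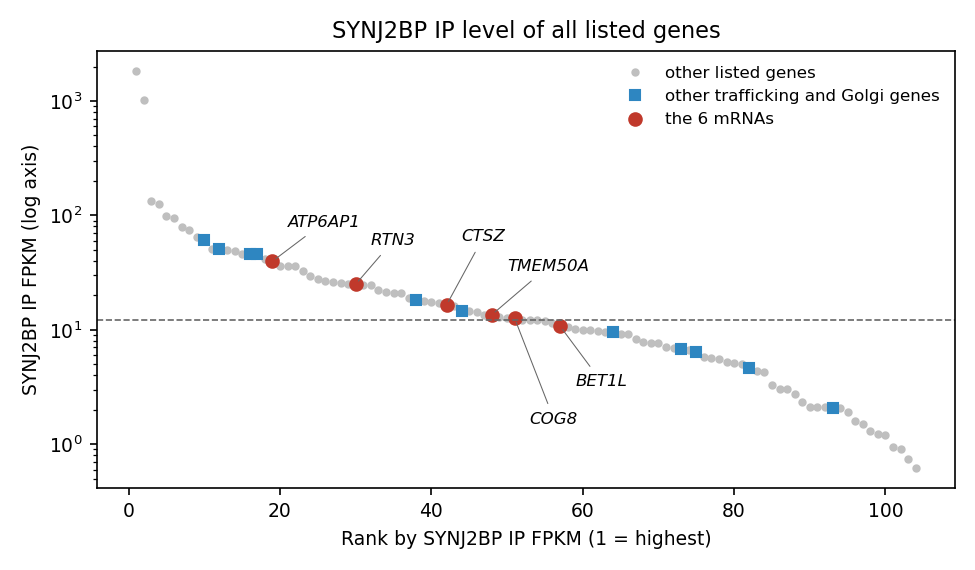
SYNJ2BP IP FPKM (log axis) of the 104 listed genes against their rank, with 1 library and no error bars. Red circles are the 6 mRNAs and blue squares are 11 other entries picked by name, trafficking and Golgi genes and 2 readthrough genes. Grey circles are the remaining genes and the dashed line is the list median of 12.2. The 6 mRNAs sit between ranks 19 and 57, in the upper and middle part of the list.

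In the IgG library the 6 mRNAs split into 1 gene with a readable level and 5 without. ATP6AP1 had an IgG FPKM of 0.468, the 8th highest of the list. The other 5 were listed under 0.01, the limit used here for calling a gene near 0 in IgG, and so were 68 of the 104 listed genes (65.4%). All 5, like 64 of the 104 listed genes, also lay under an FPKM of 0.001. A single fragment mapped to a 10 kb transcript would reach that value if 100000000 fragments had been mapped, so these numbers can be read only as near 0 and their plain ratios have no readable size.

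To compare the libraries, 1 was added to each FPKM, log2 was taken and the IgG value was subtracted from that of the SYNJ2BP IP. This log2 difference lay between 3.56 and 4.79 for the 6 mRNAs, with a median of 3.99, beside 3.65 for the other 98 genes and 3.72 for all 104. All 6 passed a 4-fold limit on this scale, as did 83.7% of the listed genes. That share is high, so the count does not set the 6 mRNAs apart. Adding 1 understates differences at low FPKM, and where the IgG value is near 0 the result is the level in the SYNJ2BP IP on another scale.

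**Figure D2:**
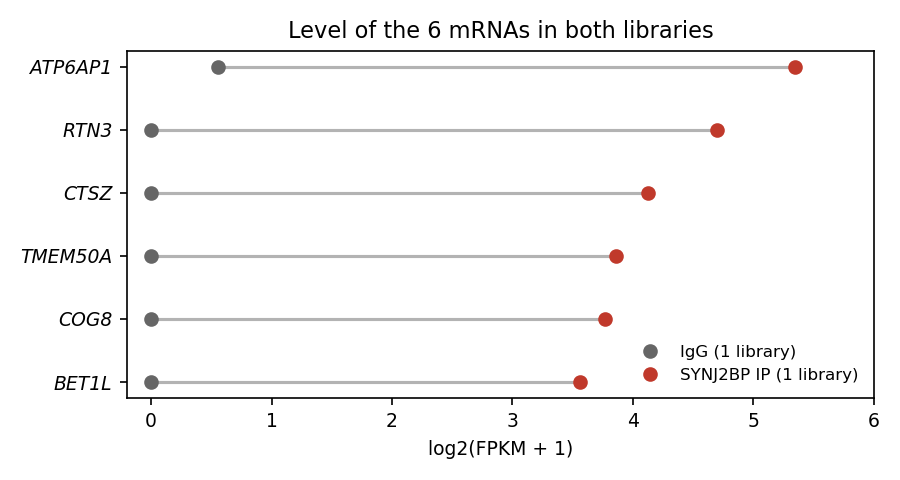
Level of each of the 6 mRNAs as log2(FPKM + 1) in the IgG library (grey) and in the SYNJ2BP IP library (red), 1 library each and no error bars. The line between points is the log2 difference, from 3.56 for BET1L to 4.79 for ATP6AP1, and only ATP6AP1 stands visibly off 0 in IgG.

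Tethering at the Golgi was represented by COG8 (ENSG00000213380), a subunit of the lobe of the complex that also holds COG5, COG6 and COG7. In the SYNJ2BP IP its FPKM was 12.6, rank 51 of 104 and near the middle of the list. In IgG it was listed at 1.85e-179. The log2 difference was 3.77. Of the 8 subunits of the complex, COG8 was the only one listed.

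COG8 was also the only one of the 6 whose listed locus coincided with that of another listed gene. On hg19 it is given on chromosome 16 from 69139466 to 69442474, a span of 303.0 kb. The clone-named gene RP11-343C2.12 has exactly the same locus, and the pair tied as 7th longest of the list. It reached 14.2 in the SYNJ2BP IP, 1.13 times the COG8 level, against 8.77e-88 in IgG. Fragments from shared exons could have been divided between the 2 entries, so the value of COG8 alone is uncertain. Summed over both entries, the FPKM was 26.8 and the log2 difference 4.80. In the RefSeq annotation of GRCh38.p14, a later build used for names and neighbours only, COG8 overlaps PDF, a mitochondrial peptide deformylase, on the same strand and VPS4A on the other strand. VPS4A is an ATPase that takes apart ESCRT filaments on endosomes. Neither overlapping gene is listed under its own name. The library kit keeps strand, but no source used here states whether the counting used it, and the part of these neighbours in the COG8 value was not tested.

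Fusion at the Golgi was represented by BET1L (ENSG00000177951), also known as GS15, which pairs with syntaxin 5 in transport within the Golgi. It had the lowest level of the 6 in the SYNJ2BP IP, 10.8, which ranked 57 of 104 and was the only value of the 6 under the list median. In IgG it was listed at 4.14e-07. The log2 difference of 3.56 was likewise the smallest of the 6, a little under the list median of 3.72. Of 11 Golgi SNARE genes looked for, BET1L alone was listed. Its locus lies on chromosome 11 from 120810 to 207428, a span of 86.6 kb, and RefSeq places the gene between CIMAP1A and RIC8A. Overlaps in RefSeq were looked up for the gene itself and not for the listed hg19 span, which may reach over neighbours, here and for the other mRNAs. The nearest listed gene, the interferon-induced IFITM1, begins 100.2 kb further along.

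RTN3 (ENSG00000133318) carries the reticulon domain, a hydrophobic hairpin that sits in one leaflet of the ER membrane and curves it. It was the second highest of the 6. The SYNJ2BP IP gave an FPKM of 25.0, rank 30 of 104, and IgG one of 0.000354. The log2 difference was 4.70, close to the 4.79 of ATP6AP1 although ATP6AP1 had 1.59 times its level in the SYNJ2BP IP. Of 14 reticulon and other ER-shaping genes, RTN3 was the only one listed. The locus, on chromosome 11 from 63448917 to 63527363, spans 78.4 kb. In RefSeq its neighbour is ATL3, an atlastin that fuses ER tubules, which is not listed.

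ATP6AP1 (ENSG00000071553), also called Ac45, is needed to assemble the proton pump in the ER. It had the highest level of the 6 in the SYNJ2BP IP, 39.7, rank 19 of 104, where it was 1.59 times RTN3 as RTN3 was 1.52 times CTSZ. It stood apart from the other 5 in IgG alone, with 0.468. Since its IgG level was readable, its plain ratio can be given, and it was 84.9. This was the 2nd lowest of the 36 genes with a readable IgG level. It lay between ATP5E, the epsilon subunit of the mitochondrial ATP synthase, with 84.8 and C14orf80 with 85.7. The median over these 36 genes was 112.5. The mRNA with the highest level of the 6 was thus also at the lower edge of the readable ratios. No listed gene had a ratio under 84.8, so this edge is where the authors' list ends, and the median is over genes already selected. With 1 added to both values the ratio was 27.7.

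Of 26 V-ATPase subunits and accessory proteins, ATP6AP1 was the only one listed under its own symbol. A pair of readthrough entries, whose transcripts join neighbouring genes, carry the name of a V-ATPase gene. RNASEK-C17orf49 reached an FPKM of 50.7 against 0.331 in IgG. ATP6V1G2-DDX39B had 6.78 and 0.00121. The FPKM does not show which joined gene their fragments came from. ATP6AP1 itself has a compact locus, on chromosome X from 153656977 to 153664862, and its span of 7.88 kb was the shortest of the 6. The nearest listed locus on the X chromosome was 45675 kb away, and the gene itself overlaps no protein-coding gene in RefSeq.

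CTSZ (ENSG00000101160) encodes a protease that trims single residues from the carboxyl end of its substrates. It ranked 42 of 104 in the SYNJ2BP IP with an FPKM of 16.4 and was listed at 1.49e-05 in IgG, with a log2 difference of 4.12. Of 15 cathepsin genes, CTSZ alone was listed, and none of 8 lysosomal membrane proteins, LAMP1 and LAMP2 among them, was. The locus on chromosome 20, from 57570239 to 57582302, spans 12.1 kb. It ends 12.0 kb before that of ATP5E, which is listed from 57594308 to 57617964 with 27.7 in the SYNJ2BP IP and 0.327 in IgG. These neighbours therefore differed in IgG, where ATP5E was readable and CTSZ was near 0. RefSeq has TUBB1, a platelet tubulin, as the next protein-coding gene after CTSZ.

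TMEM50A (ENSG00000183726) was the only one of the 6 that the table marks for CLIP (crosslinking immunoprecipitation), together with 10 other genes. It had 13.5 in the SYNJ2BP IP, rank 48 of 104, and 1.85e-09 in IgG, with a log2 difference of 3.86. By level in the SYNJ2BP IP it was 4th of the 11 marked genes, whose median was 7.70. The listed locus is long, 188.0 kb on chromosome 1 from 25568727 to 25756683, and may reach over neighbours. In RefSeq TMEM50A overlaps RHCE, a blood group gene of the Rh family, on the other strand. RHCE is not listed, and its part in the TMEM50A value was not tested. TMEM50B, the only close relative of TMEM50A, is not listed either.

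**Figure D3:**
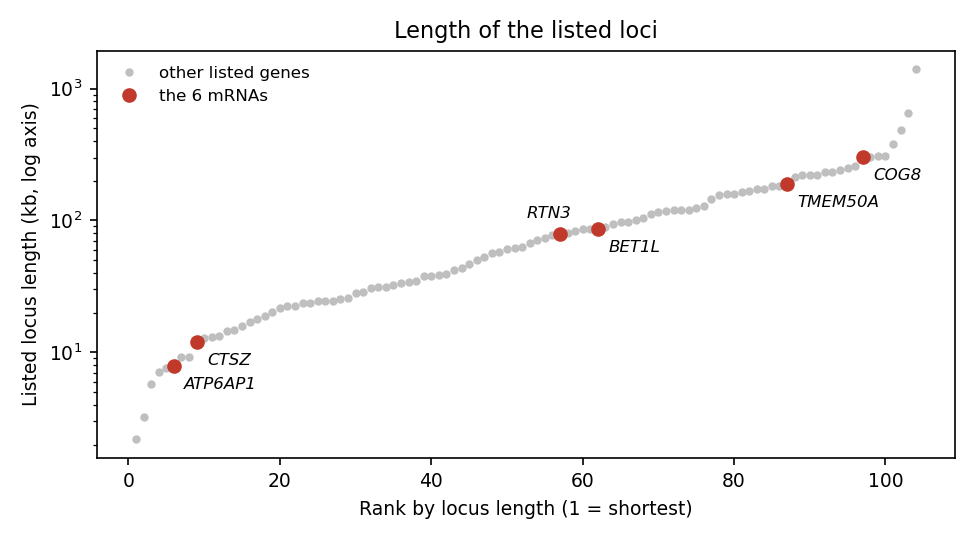
Length of the listed hg19 locus (kb, log axis) of each of the 104 genes against its rank, with the 6 mRNAs in red. ATP6AP1 and CTSZ are at the short end with 7.88 and 12.1 kb, BET1L and RTN3 lie in the middle, and TMEM50A and COG8 are at the long end with 188.0 and 303.0 kb. A listed span may reach over neighbouring genes.

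The listed loci of the 6 mRNAs thus covered a wide range, from 7.88 to 303.0 kb, with a median of 82.5 kb beside 62.7 kb for the other 98. They lay on 5 chromosomes, and BET1L and RTN3, the pair on chromosome 11, are far apart. The 2 longest loci, of COG8 and TMEM50A, belong to the genes that overlap protein-coding neighbours in RefSeq. No relation between locus length and FPKM was tested.

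The order of the 6 by difference depended on the amount added to both values. With 1 or 10 added, ATP6AP1 came first of the 6, and with 0.1 or 0.01 added it came last. Its log2 difference was 6.13 with 0.1 added and 6.38 with 0.01, and its rank in the whole list went from 24 with 1 added to 62 and then 99. RTN3 went the other way, from rank 28 to 12 and then 9, with differences of 7.97 and 11.24. The order of the remaining 4, CTSZ, TMEM50A, COG8 and BET1L, was the same at each amount, since for them it is the order of their levels in the SYNJ2BP IP. Those levels were close, with CTSZ only 1.53 times BET1L, and without replicates it cannot be said whether neighbours in this order differ.

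**Figure D4:**
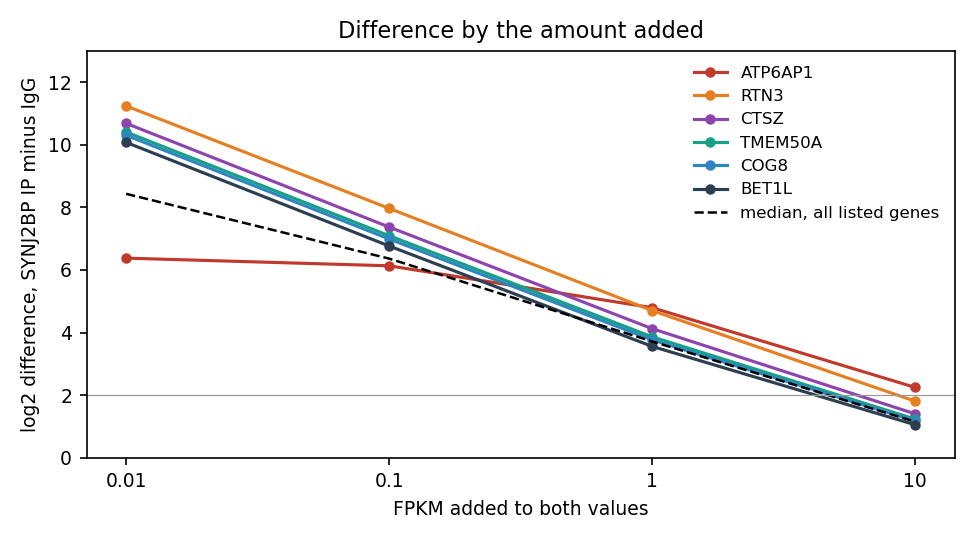
Log2 difference of the SYNJ2BP IP over IgG for the 6 mRNAs (coloured lines) and the median of all 104 listed genes (dashed), by the FPKM added to both values before taking log2. The thin horizontal line marks a 4-fold difference, and ATP6AP1 crosses from highest of the 6 at 1 and 10 to lowest at 0.1 and 0.01.

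Each mRNA had close company in the list. By distance on the log2(FPKM + 1) scale over both libraries, the gene nearest to ATP6AP1 was ZWILCH, a kinetochore protein, with 41.2 in the SYNJ2BP IP and 0.328 in IgG, at a distance of 0.15. The nearest to RTN3 was ZSCAN23, a zinc finger gene, with 25.6 in the SYNJ2BP IP. For CTSZ it was the F-box gene FBXO16 with 16.2, and for BET1L the armadillo repeat gene ARMCX5 with 10.6. TMEM50A lay next to PDPR, a regulator of pyruvate dehydrogenase phosphatase, with 13.6. COG8 lay next to the clone-named RP11-244H3.4, with 12.3. Apart from RP11-244H3.4, to which no function was assigned here, none of these nearest genes belongs to the trafficking and lysosome group. Likeness over 2 libraries says only that the levels were alike.

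Other trafficking and Golgi genes, picked by name from the table, ran from 2.08 to 61.4 in the SYNJ2BP IP, a wider range than that of the 6. A larger set can span more by its number alone. The 11 entries counted include the 2 readthrough genes named above, whose fragments cannot be assigned to a joined gene. Of the 11, 10 passed the 4-fold limit, beside 83.7% of the listed genes, so that count does not set them apart. Near 0 in IgG were 4 of the 11, beside 65.4% of the listed genes. The median log2 difference was 3.78, beside 3.72 for all 104. Among those of vesicle and lipid transport, EVI5L, a Rab GTPase-activating protein, reached 61.4 against 0.689 in IgG. SNX12, an endosomal sorting nexin, had 45.8 and 0.458, nearly the levels of ATP6AP1. PITPNM1, a phosphatidylinositol transfer protein, had 14.7 and 0.143, and BROX, a partner of the ESCRT machinery, had 6.40 and 1.56e-10.

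Golgi glycan synthesis was represented by 5 genes. EXTL3, a glycosyltransferase of heparan sulfate synthesis, was the highest with 45.5 in the SYNJ2BP IP and 0.360 in IgG. NDST1, which modifies heparan sulfate, had 18.1 and 0.0648. GALNT6 and GALNT4, which start mucin-type O-glycans, had 9.50 and 2.08 in the SYNJ2BP IP, and SLC35B3, a Golgi transporter of the sulfate donor PAPS, had 4.66. GALNT4 was the only one of the 11 under the 4-fold limit. The COG complex keeps such enzymes in place in the Golgi. By level COG8 fell in the wide interval between NDST1, rank 38, and GALNT6, rank 64. A link between these levels and that role was not tested.

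The families counted above were built around the 6 mRNAs, and together with the COPI and COPII coats they held 105 genes, of which the 6 were listed. A list of 104 selected genes would hold few members of any family, so these counts say nothing about the pathway as a whole. Genes outside the list were not analysed here, so their levels in the SYNJ2BP IP and IgG are not known.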

How the data were processed

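RNA from HEK293T cells was immunoprecipitated with a SYNJ2BP antibody or IgG, 1 library each, and libraries were made after removal of rRNA with a stranded kit. The authors deposited gene-level FPKM of 104 selected genes. Per the submitters' processing notes the build was hg19 and the tools were HISAT2 (2.0.4), cutadapt (1.9.3), Cuffdiff (2.2.1) and Cufflinks, with no order stated. No source used here states the annotation or the rule of listing. A further column holds the authors' fold change and was not used. The deposited CLIP column is a mark of 0 or 1.

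Here log2 differences (1 added to both FPKM), ranks, locus spans (end minus start) and overlaps of at least 1 base were calculated with pandas 2.3.3 and numpy 2.4.6 under Python 3.11.15. Figures were drawn in matplotlib 3.10.9. The formula was run on values simulated by inverting it, which checks the code only. Members, gene lists and alternatives were chosen with earlier results of these data known. Genes named are the 6 members, listed genes of the lists, the nearest gene by level and by locus, and those beside ATP6AP1 by ratio. SCRIB and MPDZ, and unlisted neighbours in RefSeq, were named after values were seen. Without counts, no counting interval was formed. Alternatives were other amounts added, fold and IgG limits, filters on SYNJ2BP IP FPKM, and leaving out COG8 or ATP6AP1.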

Additional observations from a re-analysis of the deposited data

How the results depend on the processing

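No paired analysis was possible because there is 1 SYNJ2BP IP library and 1 IgG library. The amount added moved the differences most, as it must. The median log2 difference of the 6 mRNAs, 3.99, was 7.04 with 0.1 added, 10.35 with 0.01 and 1.32 with 10. For the other 98 genes it was 3.65, and 6.32, 8.26 and 1.13 at the same amounts. The gap between the medians widened at small amounts, where genes near 0 in IgG gain most. Near 0 were 5 of the 6 mRNAs and 63 of the other 98. With 10 added, 1 of the 6 mRNAs (ATP6AP1) and 22 of the other 98 were at least 4-fold higher, beside 6 and 81 with 1 added. All 6 passed both filters on SYNJ2BP IP FPKM, and so did most of the 104 listed genes. These passed down to rank 100 at 1 or more and to rank 81 at 5 or more, so passing does not set the 6 apart. The median of the other genes rose with the filters, to 3.72 at 1 or more and 4.16 at 5 or more. At 5 or more the median of the 6 was the lower one. Without COG8, whose locus is shared, the median of the remaining 5 was 4.12. Without ATP6AP1, a choice made after seeing the data, as was summing COG8 with RP11-343C2.12, it was 3.86. The plain ratio of ATP6AP1, 84.9, was 70.1 with 0.1 added and 27.7 with 1. The counts at fold limits of 2 and 8 and at other IgG limits stayed within 1.5 times. An analysis of hydrophobic stretches in the encoded proteins was planned but not run, since protein sequences were not used here. What depth limits could not be assessed.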
